A study of Mus musculus with 5 samples.

Results

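The genes described are 10 acute phase and IL-6 family genes in 5 mouse heart libraries: the acute phase and tissue injury genes Serpina3n, Lcn2, Saa3, Hp and Chil1, the feedback inhibitor Socs3, the receptor chains Osmr, Il6st and Lifr, and the transcription factor Stat3. They were taken by gene name from the 19061 gene rows, and all 10 were found. They were chosen by name with the vehicle and JIB-04 expression values of these libraries in view, so those values are given below as a description that supports nothing. Values are those of the deposited column headed CPM, reads of a gene scaled to library size.

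All 5 libraries came from hearts of C57BL/6 mice labelled calcineurin transgenic, at postnatal day 158. The design text names the transgene MHC-CnATg. In this model an activated calcineurin is made in cardiomyocytes from the alpha myosin heavy chain promoter, and the heart becomes severely hypertrophic. The vehicle group had 2 libraries and the JIB-04 group 3. JIB-04, a compound that inhibits histone demethylases of the Jumonji class, was given at 50 mg/kg, 3 times a week from 4 weeks of age. Both groups carry the transgene, and no heart without it was analysed here. The question is which transcripts of the hypertrophic heart differ after months on the inhibitor. One letter of the genotype abbreviation differs in the title of JIB-04 replicate 3, whose genotype label is the same as the others.

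The IL-6 family of cytokines signals through receptor complexes that share the chain gp130, encoded by Il6st. A ligand brings gp130 together with a second chain such as LIFR or OSMR, Janus kinases bound to the chains phosphorylate STAT3, and STAT3 enters the nucleus and switches on target genes. One target is Socs3, whose product binds the receptor complex and shuts the signal off. The acute phase proteins are a wider output of this pathway and of IL-1 and NF-kB signalling, made in large amounts by the liver and also in injured tissues, the heart among them.

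Recovered depth was between 32152168 and 37002846 reads in a library. A count of 3 reads, taken as the lowest level that could be seen, was 0.0804 to 0.0977 CPM, for counting error only. Summed over 8 cardiomyocyte markers the libraries held 71080 to 91310 CPM, so the labelled tissue was matched. Each title carries a number of its own, but the labels do not say what it marks or that the libraries came from separate animals. The p-values then measure only the spread between these libraries.

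No gene passed limma's threshold, an adjusted p under 0.05 (Benjamini-Hochberg), in either direction among the 14414 genes tested: 0.0% were called higher and 0.0% lower, with a lowest adjusted p of 0.316. At an unadjusted p under 0.05 limma had 566 genes higher (3.93%) and 362 lower (2.51%). The counts from edgeR and limma-voom on recovered reads were 0, against 946 and 872 genes by unadjusted p. DESeq2 called 69 genes higher, 0.455%, with Serpina3n and Chil1 among them, and 16 lower, 0.106%. When JIB-04 replicate 1 was left out, limma had 27 calls for higher genes, 0.187%, with Serpina3n, Chil1 and Osmr among them, and 2 lower, 0.0139%.

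Of the 9 members with enough reads to be tested, 4 had all JIB-04 libraries above both vehicle libraries, which was so for 10.7% of all tested genes. These were Serpina3n, Chil1, Socs3 and Il6st. None of the members had all JIB-04 libraries below, against 12.0% of all tested genes. The median log2 fold change, JIB-04 minus vehicle on the log2(CPM + 1) scale, was 0.36 over the 9 members and -0.01 over all tested genes. It was positive for 8 of the 9 members and for 46.9% of all tested genes. Since the members were chosen with this comparison known, nothing is read from these counts. Saa3 had too few reads to be tested.

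**Figure D1:**
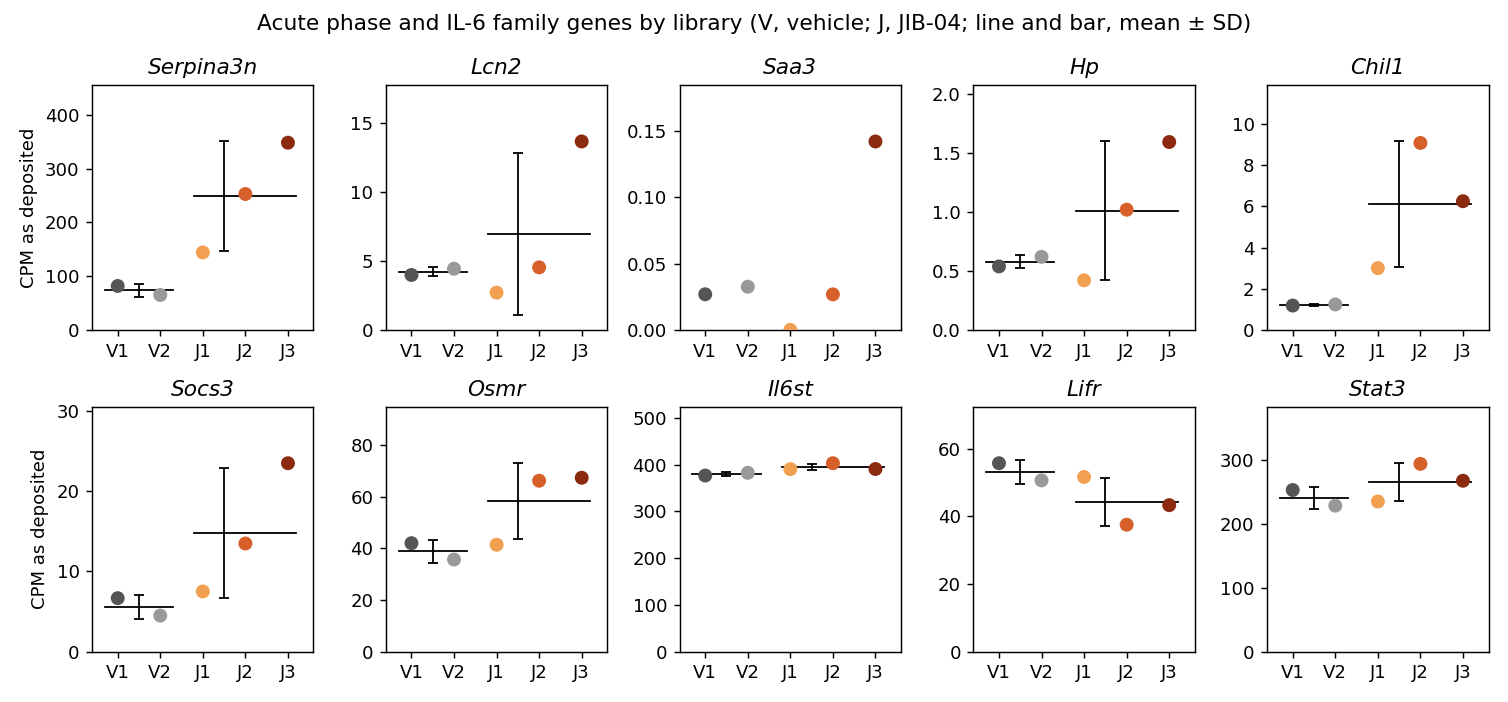
Deposited CPM of the 10 genes in each library (V, vehicle replicates 1 and 2; J, JIB-04 replicates 1 to 3); each panel has its own axis from 0, points are libraries, and lines with bars are group means ± SD (not drawn for Saa3, which has at most 5 reads). Serpina3n, Chil1, Socs3 and Il6st have every JIB-04 point above both vehicle points, by a wide margin in Serpina3n and by little in Il6st.

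Serpina3n encodes a secreted inhibitor of serine proteases of the acute phase (chromosome 12, 104406708 to 104414329, mm10, plus strand). It was at 81.7 and 64.99 CPM in vehicle replicates 1 and 2, and at 144, 253 and 348 CPM in JIB-04 replicates 1, 2 and 3. The groups did not overlap, and the lowest JIB-04 library stood at 1.96 times the vehicle mean and the highest at 4.75 times. The means were 73.3 ± 11.8 CPM (SD, n = 2) and 248 ± 102 CPM (SD, n = 3), a ratio of 3.39. On the log2(CPM + 1) scale the difference was 1.66 with an SE of 0.33. On that scale, which understates changes at low levels, only 3 of the 14414 tested genes, Serpina3n included, had a log2 fold change as high. The rank depends on the scale: with edgeR on reads the value was 1.77 for Serpina3n and 2.35 for Chil1. The gene belongs to a cluster of close relatives between which reads can be split, and how the counting treated such reads is not given in the sources used here. The other 9 Serpina3 rows in the files summed to 1.72 and 1.40 CPM in vehicle and 2.58, 3.16 and 4.92 CPM in JIB-04, a small amount beside Serpina3n itself.

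Chil1 encodes chitinase-3-like protein 1, also called YKL-40, a secreted lectin of inflamed and remodelling tissue (chromosome 1, 134182404 to 134190031, plus strand). Vehicle held 1.18 and 1.24 CPM and JIB-04 held 3.00, 9.08 and 6.25 CPM. The vehicle libraries were close together and every JIB-04 library lay above them. Exact Poisson 95% intervals, which cover counting error only, ran from 0.859 to 1.59 and 0.876 to 1.70 CPM in vehicle, and the nearest JIB-04 interval was 2.44 to 3.65 CPM. The ratio of means was 5.05, the highest of the 10 genes. The fitted log2 difference was 1.59 (SE 0.35) on the log2(CPM + 1) scale, which understates a change at such low levels, and 2.35 with edgeR on reads.

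Lcn2 encodes lipocalin-2, which binds bacterial iron carriers and is stored in neutrophil granules (chromosome 2, 32384637 to 32387739, minus strand). It was at 3.98 and 4.43 CPM in vehicle and 2.70, 4.53 and 13.6 CPM in JIB-04. JIB-04 replicate 1 lay below both vehicle libraries, replicate 2 level with them and replicate 3 far above, so the groups overlapped. The log2 fold change of 0.36 had an SE of 0.52, and without JIB-04 replicate 3 it was -0.20.

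Hp encodes haptoglobin, the plasma protein that captures free hemoglobin (chromosome 8, 109575128 to 109579172, minus strand). Levels were low, at 0.537 and 0.619 CPM in vehicle and 0.420, 1.02 and 1.59 CPM in JIB-04, or 14 to 56 reads. JIB-04 replicate 1 was the lowest of the 5 libraries and replicate 3 the highest. The Poisson interval of JIB-04 replicate 3 was 1.20 to 2.07 CPM, above those of both vehicle libraries, whose upper bounds were 0.830 and 0.966 CPM. The interval of JIB-04 replicate 2, from 0.720 to 1.40 CPM, overlapped them. The log2 fold change was 0.31 (SE 0.24) on the log2(CPM + 1) scale, which understates a change at such low levels. With edgeR on reads it was 0.82.

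Saa3 encodes a serum amyloid A protein made outside the liver (chromosome 7, 46711998 to 46715676, minus strand). It had 1 read in each vehicle library and 0, 1 and 5 reads in JIB-04 replicates 1, 2 and 3. Only JIB-04 replicate 3, at 0.142 CPM with an interval of 0.0461 to 0.332, was above the level of 3 reads. A difference between the groups was not detectable at this depth, and no fold is given.

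Socs3, the feedback inhibitor, lies on chromosome 11 (117966087 to 117969366, minus strand). It was at 6.66 and 4.49 CPM in vehicle and 7.50, 13.5 and 23.5 CPM in JIB-04. The groups did not overlap, but JIB-04 replicate 1 was only just above vehicle replicate 1: their Poisson intervals, 6.60 to 8.49 and 5.86 to 7.55 CPM, overlapped. Replicates 2 and 3 stood at 2.42 and 4.21 times the vehicle mean. The fitted log2 difference was 1.15 (SE 0.41), and 14 tested genes had one at least as high on the log2(CPM + 1) scale, Socs3 included.

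The 3 receptor chains had unlike values. Osmr encodes the receptor chain for oncostatin M (chromosome 15, 6813577 to 6874313, minus strand). It was at 42.0 and 35.7 CPM in vehicle and 41.4, 66.2 and 67.4 CPM in JIB-04. JIB-04 replicate 1 lay within the vehicle range and the other JIB-04 libraries well above it, and the log2 fold change was 0.55 (SE 0.21).

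Il6st, the shared gp130 chain (chromosome 13, 112464070 to 112506860, plus strand), was the steadiest of the 10 genes. Its values were 377 and 382 CPM in vehicle and 391, 403 and 391 CPM in JIB-04. Every JIB-04 library was above both vehicle libraries, yet the ratio of means was 1.04 and the log2 fold change 0.06 with an SE of 0.06.

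Lifr encodes the leukemia inhibitory factor receptor chain (chromosome 15, 7129572 to 7197489, plus strand) and was the one member with a negative value. It was at 55.7 and 50.6 CPM in vehicle and 51.6, 37.5 and 43.3 CPM in JIB-04. JIB-04 replicate 1 lay between the vehicle libraries and the other JIB-04 libraries below both. The log2 fold change was -0.27 (SE 0.13).

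Thus Osmr and Lifr, each of which pairs with gp130, had values of opposite sign. In vehicle, Lifr was above Osmr in both libraries, at 4.93 and 3.21 CPM per kilobase of exon on average, and in JIB-04 the means were 4.09 and 4.82 CPM per kilobase. Per kilobase, Lifr was also the higher in JIB-04 replicate 1, and Osmr was the higher in replicates 2 and 3. Exon lengths of 12113 bases for Osmr and 10776 for Lifr are those of all GENCODE M21 exons merged. This difference between the chains was noticed in the values and was not tested.

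Stat3, the transcription factor that the receptors activate (chromosome 11, 100886810 to 100939511, minus strand), was at 253 and 228 CPM in vehicle and 235, 294 and 267 CPM in JIB-04. JIB-04 replicate 1 lay between the vehicle libraries, and the log2 fold change was 0.14 (SE 0.11). These are levels of RNA. The phosphorylation that activates STAT3 was not measured.

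**Figure D2:**
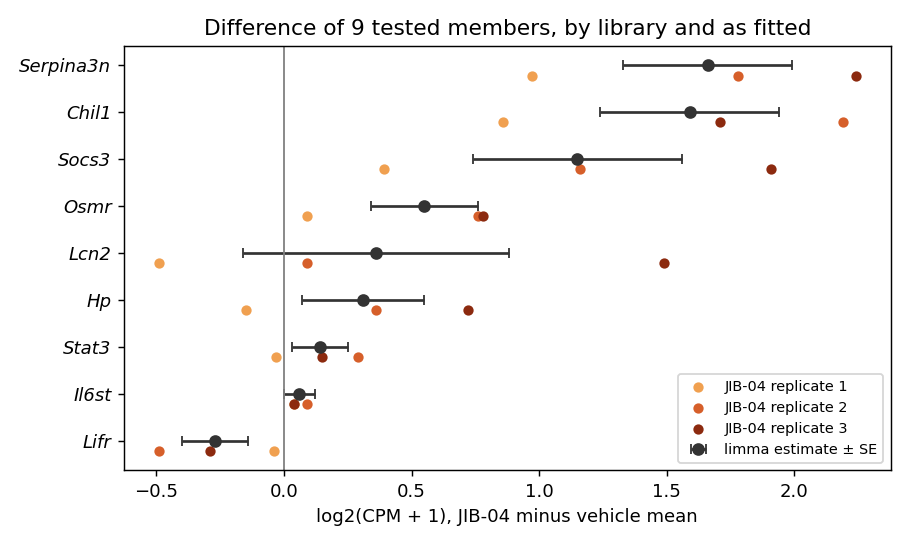
Difference from vehicle on the log2(CPM + 1) scale for the 9 tested members; black points and bars are the limma estimate ± SE, and coloured points each JIB-04 library minus the vehicle mean. JIB-04 replicate 1 is the lowest of the 3 JIB-04 libraries in 8 of the 9 members, and the estimates run from -0.27 in Lifr to 1.66 in Serpina3n.

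Per kilobase of merged exon, the mean vehicle levels put Serpina3n (35.5 CPM per kilobase), Il6st (34.2) and Stat3 (25.3) at the top. Lifr, Osmr, Socs3 and Lcn2 lay between 1.60 and 4.93, and Chil1, Hp and Saa3 at 0.431, 0.360 and 0.0114. In JIB-04, Serpina3n had 120.3 CPM per kilobase against 35.6 for Il6st and 27.9 for Stat3. In vehicle the levels of Serpina3n and Il6st per kilobase could not be separated beyond the spread of Serpina3n.

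The spread among the 3 JIB-04 libraries was not alike for all members. The highest JIB-04 library was 2.42 times the lowest for Serpina3n, 3.03 times for Chil1, 3.13 times for Socs3, 3.79 times for Hp and 5.05 times for Lcn2. The same ratio for Il6st was 1.03. Of the 9 tested members, 8 had their lowest JIB-04 value in replicate 1, where 34.2% of all tested genes had theirs, and Lifr had it in replicate 2. The highest JIB-04 value was in replicate 3 for 5 members (Serpina3n, Lcn2, Hp, Socs3 and Osmr), in replicate 2 for Chil1, Il6st and Stat3, and in replicate 1 for Lifr. For all tested genes these shares were 27.3%, 31.9% and 40.9%. The median member lay at 0.04, 0.36 and 0.78 above the vehicle mean in JIB-04 replicates 1, 2 and 3 on the log2(CPM + 1) scale, and at 0.07 and -0.07 in vehicle. The median log2 fold change of the members was 0.77 without JIB-04 replicate 1 and 0.13 without replicate 3.

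The promoters of the members were searched for short motifs because Serpina3n, Socs3, Lcn2 and Hp had the same order of JIB-04 libraries. Osmr also had that order, with replicates 2 and 3 close together at 66.2 and 67.4 CPM, as did Saa3 with 0, 1 and 5 reads. RefSeq start sites on GRCm38.p6, the assembly of mm10, gave 10 windows of 250 bases before the start, with 2 for Lifr and none for Hp. The motifs were TTCNNNGAA for STAT factors, TTGCNNAA for C/EBP factors and, for NF-kB, GGG, any 2 bases and then TTTCC, each on both strands, and TATAAA on the strand of the gene. The STAT letters were in 1 of the 10 member windows and in 7.02% of all 32851 windows, the C/EBP letters in 2 and 9.56%, the NF-kB letters in 1 and 1.41%, and TATAAA in 0 and 7.59%. The 4 matches lay in 4 different windows. Each match is shown 5′ to 3′ on the strand of its gene within 30 bases, with the matching letters in capitals.
Serpina3n, NF-kB letters: aacagaggtgGGGCTTTTCCcatcaggaag
Socs3, STAT letters: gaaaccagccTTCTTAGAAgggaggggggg
Lcn2, C/EBP letters: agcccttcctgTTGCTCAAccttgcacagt
Saa3, C/EBP letters: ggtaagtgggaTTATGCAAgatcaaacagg

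The Serpina3n stretch lies at chr12:104406527-104406556, and its match is 171 to 162 bases before the start, outside any GENCODE M21 gene. The Socs3 stretch, the one STAT match, lies at chr11:117969501-117969530, 154 to 146 bases before the RefSeq start and within an intron of a longer GENCODE transcript of Socs3. The Lcn2 stretch is at chr2:32387937-32387966, within an exon of a longer GENCODE transcript of Lcn2. The Saa3 stretch is at chr7:46715757-46715786, outside any GENCODE gene. Lcn2 and Saa3 share the C/EBP letters but not their values: Lcn2 had 90 to 480 reads a library and Saa3 at most 5. A match is a description of letters and no evidence of binding, and binding was not measured.

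Of the 11 IL-6 family ligand genes found in the files, 8 were tested, and 0 passed in either direction with limma, edgeR, limma-voom or DESeq2 (1 at an unadjusted limma p under 0.05). Without JIB-04 replicate 1 limma called 1 ligand gene. Their median log2 fold change was 0.14, with 6 positive and 2 negative. Il6, among the positive, passed the read filter through JIB-04 libraries alone, which favours a positive value. Il6 itself was nearly absent in vehicle, at 6 and 2 reads, and had 8, 24 and 117 reads in JIB-04 replicates 1, 2 and 3. In CPM this was 0.161 and 0.0651 against 0.240, 0.643 and 3.32, with JIB-04 replicate 3 far above every other library, as it was for Lcn2. The log2 fold change of Il6 was 0.89 (SE 0.48, limma adjusted p = 0.821) on the log2(CPM + 1) scale, which understates a change at such low levels.

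Clcf1, which encodes a ligand of the ciliary neurotrophic factor receptor complex, was at 1.96 and 2.18 CPM in vehicle and 2.43, 3.27 and 3.13 CPM in JIB-04 (limma adjusted p = 0.748). The ligands of the receptor chains above had few reads: Lif, the ligand of LIFR, had 9 to 35 reads a library, Il11 7 to 27, and Osm, which encodes oncostatin M, 2 to 13. Ctf1, the cardiotrophin gene, had 135 to 259 reads. Osm, which was not tested, was at 0.0537 and 0.0977 CPM in vehicle and 0.210, 0.214 and 0.369 CPM in JIB-04. Cntf and Ctf1 had the negative values, -0.11 and -0.25.

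**Figure D3:**
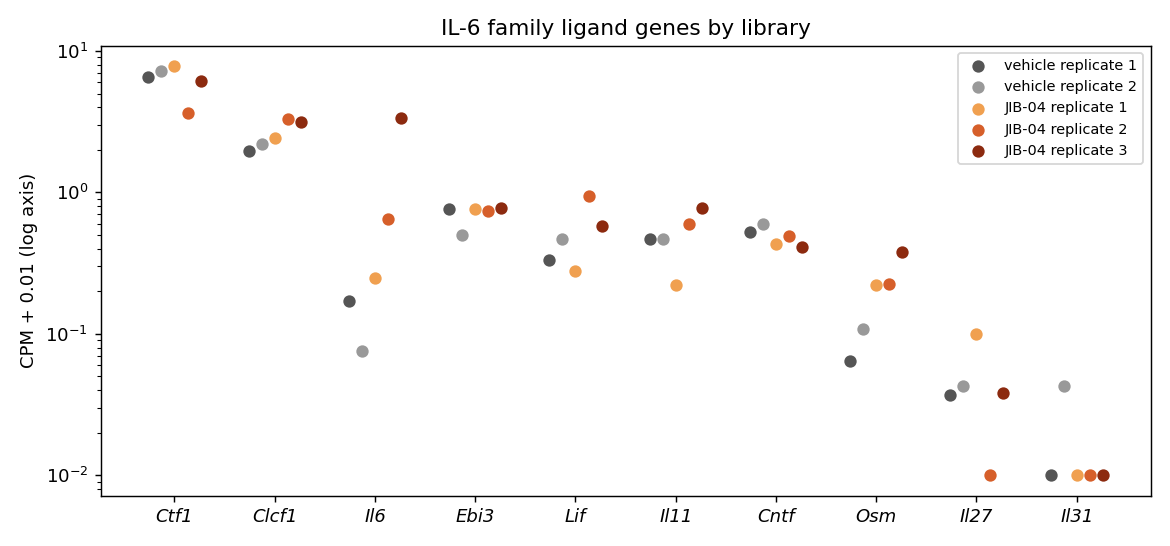
Deposited CPM plus 0.01 on a log axis for 10 of the ligand genes, 1 point per library, ordered by the JIB-04 mean. Il6 in JIB-04 replicate 3, at 3.32 CPM, stands apart from the other 4 libraries at 0.0651 to 0.643 CPM.

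In the lists of other receptor chains, of Janus kinases and STAT genes and of inhibitors, limma, edgeR, limma-voom and DESeq2 called 0 genes. At an unadjusted limma p under 0.05 there were 0, 2 and 1, against 3.93% higher and 2.51% lower over all tested genes. Among 4 tested receptor chains outside the members the median was -0.01, and Il6ra, the chain specific for IL-6, was at 3.98 and 3.03 CPM in vehicle and 2.82, 3.99 and 4.18 CPM in JIB-04. Cntfr had the smallest p of these, at a log2 fold change of -0.55 (SE 0.28), and Il11ra1 and Il27ra followed with -0.06 and 0.11. Of 10 Janus kinase and other STAT genes 7 were positive (median 0.02), against 46.9% of all tested genes. Stat2 was at 25.4 and 22.2 CPM in vehicle and 29.0, 27.7 and 27.5 CPM in JIB-04, and Stat4 had a log2 fold change of 0.20.

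Among 15 other inhibitors of this signalling 7 were positive and 8 negative (median -0.03), beside the 1.15 of Socs3 and 46.9% of all tested genes positive. Socs2, induced by growth hormone, did not overlap between the groups and was the lower in JIB-04, with a log2 fold change of -0.12 (SE 0.07). Ptpn6, a phosphatase of blood cells, was at 7.20 and 5.57 CPM in vehicle and 8.55, 9.62 and 13.7 CPM in JIB-04 (log2 fold change 0.64, SE 0.20). Ptpn1 followed at 0.13 (SE 0.07).

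Of 22 tested STAT3 target genes 17 were positive and 5 negative, with a median of 0.16. All tested genes were positive in 46.9% of cases, with a median of -0.01. With limma, edgeR, limma-voom and DESeq2 0 passed in either direction, with 5 at an unadjusted limma p under 0.05. At that p 3.93% of all tested genes were higher and 2.51% lower. Without JIB-04 replicate 1 limma called Timp1, where 0.187% of all tested genes were called higher. Bcl6, a transcriptional repressor, was at 45.4 and 51.2 CPM in vehicle and 64.2, 58.5 and 64.7 CPM in JIB-04 (log2 fold change 0.37, SE 0.08). Bcl2l1, which encodes the survival protein BCL-XL, was at 74.9 and 64.7 CPM in vehicle and 51.3, 37.6 and 51.1 CPM in JIB-04 (log2 fold change -0.58, SE 0.15). Cebpb, a transcription factor of the acute phase response, was also lower in every JIB-04 library, at 27.2, 25.9 and 30.8 CPM against 37.2 and 31.1 (log2 fold change -0.28, SE 0.11). The limma adjusted p was 0.474 for Bcl6, 0.556 for Bcl2l1 and 0.750 for Cebpb.

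Of 41 other acute phase genes 22 were tested, with 17 positive, 5 negative, and a median of 0.29. Among the positive, Serpina3f, Serpina3h, Serpina3i and Fgb had fewer than 10 reads in both vehicle libraries. They passed the filter through JIB-04 alone, which favours a positive value, so the count is a description only. The share of positive values was 46.9% over all tested genes, and their median -0.01. With limma, edgeR and limma-voom 0 passed (7 at an unadjusted limma p under 0.05). DESeq2 called 3 higher: C3 (adjusted p = 0.000586), C4b (0.00589) and Cfb (0.0245). Among all genes DESeq2 called 0.455% higher, and at the unadjusted limma p 3.93% were higher and 2.51% lower. Without JIB-04 replicate 1 limma called Lbp, where 0.187% of all tested genes were called higher. The other 19 had too few reads, the liver genes Saa1, Saa2, Crp and Apcs among them with at most 5 reads in a library. The 3 with the smallest p were complement genes. C3 was at 204 and 144 CPM in vehicle and 279, 370 and 420 CPM in JIB-04 (limma adjusted p = 0.426). Cfb had a log2 fold change of 0.80 (SE 0.16) and C4b of 0.83 (SE 0.18), both with no overlap between the groups.

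Of 23 tested genes of IL-1, TNF and NF-kB signalling 20 were positive and 3 negative, with a median of 0.24. Il1rn and Tnf, both positive, passed the filter through JIB-04 libraries alone. For all tested genes 46.9% were positive and the median was -0.01. With limma, edgeR and limma-voom 0 passed (6 at an unadjusted limma p under 0.05), and DESeq2 called 1 higher, Ccl2 (adjusted p = 0.0299). The shares over all genes were 0.455% called higher by DESeq2, and 3.93% higher and 2.51% lower at the unadjusted limma p. Tnfaip3, an inhibitor of NF-kB, was at 3.41 and 3.45 CPM in vehicle and 4.65, 5.95 and 5.48 CPM in JIB-04. Tlr2 had a log2 fold change of 0.43 (SE 0.11). Ccl2, which draws monocytes, was at 0.967 and 0.521 CPM in vehicle and 1.41, 3.27 and 5.37 CPM in JIB-04 (log2 fold change 1.22, SE 0.38). Among relatives and partners of Chil1, Lcn2 and Hp, 0 of 9 tested genes passed with limma, edgeR, limma-voom or DESeq2. At an unadjusted limma p under 0.05 there were 4, against 3.93% higher and 2.51% lower over all tested genes. Chil3, among these 4, passed the filter through JIB-04 libraries alone. Apod, a lipocalin, had a log2 fold change of 0.47 (SE 0.10) and Ctbs of 0.31 (SE 0.10). Hbb-b1, a beta globin whose protein haptoglobin binds, was at 2027 and 1350 CPM in vehicle and 500.1, 970.4 and 714.5 CPM in JIB-04. Hp was lowest in JIB-04 replicate 1 and highest in replicate 3. The Hbb-b1 row overlaps that of Hbb-bs on the same strand, and how the counting treated shared reads is not given.

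Marker sums of some cell types differed between libraries as members did. In these whole-heart libraries, more cells of a type and more RNA per cell cannot be told apart. The 12 macrophage markers summed to 365 and 263 CPM in vehicle and 365, 497 and 570 CPM in JIB-04 replicates 1, 2 and 3. Of these 12, 11 were positive, against 46.9% of all tested genes, and 6 had every JIB-04 library above vehicle, against 10.7%. Of the 12, limma called 0 and DESeq2 4, all higher, against 0.455% of all genes called higher by DESeq2. The sums put the JIB-04 libraries in the order they had for Serpina3n and Socs3. Fibroblast markers, of which 8 of 9 were positive, summed to 2685 and 2374 CPM in vehicle and 2603, 3708 and 3373 CPM in JIB-04. The 8 cardiomyocyte markers were all negative, with sums of 80460 and 91310 CPM in vehicle and 86850, 71080 and 76260 CPM in JIB-04. The red blood cell markers summed to 3459 and 2284 CPM in vehicle and 851, 1675 and 1229 CPM in JIB-04. All 6 were negative (median log2 fold change -0.99), and 4 had every JIB-04 library below vehicle, against 12.0% of all tested genes. The part of these cell types in the values of the members was not tested.

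The neutrophil markers bear on Lcn2. Of the 12 found in the files, Mpo and Elane, which encode granule enzymes of neutrophils, were at 0 in every library. The summed level was 8.17 and 9.51 CPM in vehicle and 9.45, 7.69 and 19.6 CPM in JIB-04, so the library with the most Lcn2, JIB-04 replicate 3, was also the one with the most neutrophil marker RNA. The list was not alike in that library: S100a8, S100a9, Csf3r, Cxcr2, Mmp8 and Mmp9 were at their highest there, with S100a9 at 5.001 CPM against 1.24 to 1.89 CPM elsewhere. Ngp and Ltf had 0 reads there, Camp had 1 read, and Retnlg was below vehicle replicate 2. Whether this accounts for the Lcn2 value was not tested.

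The hepatocyte markers bear on Hp. All 10 were found, at summed levels of 12.4 and 18.7 CPM in vehicle and of 5.85, 24.0 and 15.03 CPM in JIB-04. Alb, the albumin gene and the defining marker, was at 4.25 and 3.78 CPM in vehicle and 0, 10.5 and 3.72 CPM in JIB-04. Both Alb and Hp were lowest in JIB-04 replicate 1, but Alb was highest in replicate 2 and Hp in replicate 3. The part of liver RNA in the Hp values was not tested. Adipoq and Plin1, which define adipocytes, had 0 to 3 reads a library. The mesothelial and endothelial sums, 5.67 to 10.3 and 736 to 957 CPM, had overlapping groups.

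**Figure D4:**
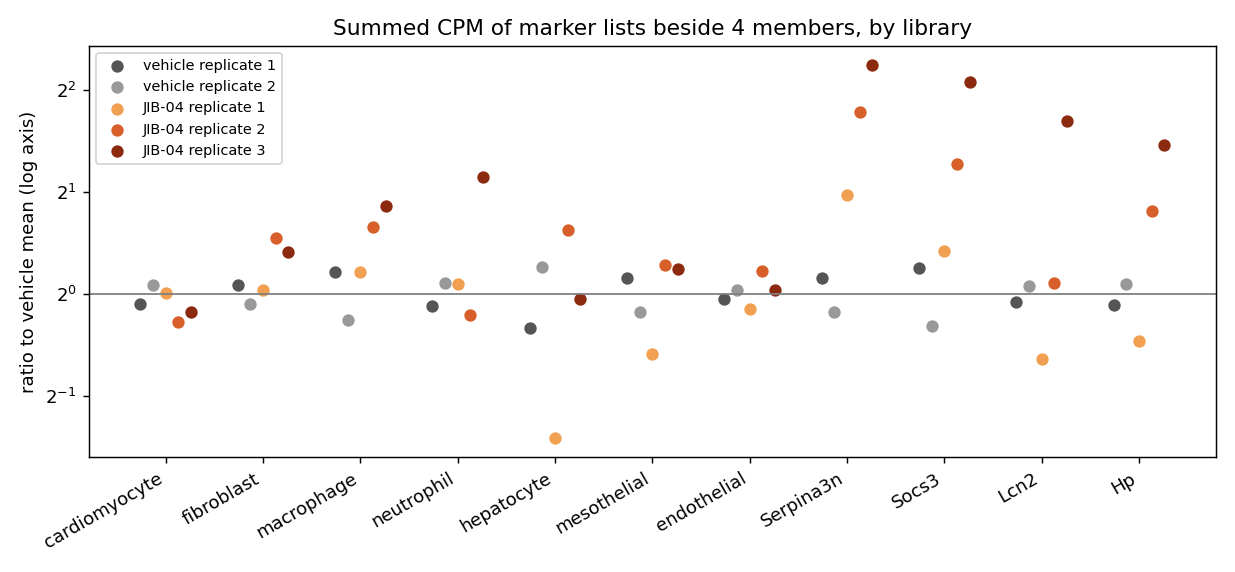
Summed CPM of 7 marker lists and CPM of 4 members in each library, as a ratio to the vehicle mean on a log axis. JIB-04 replicate 3 is the highest library for neutrophil markers, macrophage markers and the 4 members shown, and JIB-04 replicate 1 lies near or below 1 for Lcn2, Hp and the hepatocyte markers.

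The genes most like Serpina3n were sought among 12837 tested genes outside the members with a mean of at least 1 CPM, by the root mean square difference over the 5 libraries of log2(CPM + 1) relative to the vehicle mean. They were Ch25h, an oxysterol-making enzyme (difference 0.266), Mmp3, a matrix metalloproteinase (0.267), Spp1, which encodes osteopontin (0.337), Csf2rb2, a cytokine receptor chain (0.342), and Ccl2 (0.347). Ch25h was at 0.833 and 1.01 CPM in vehicle and 2.13, 5.17 and 5.82 CPM in JIB-04. Mmp3 was at 3.33 and 2.64 CPM in vehicle and 8.82, 8.71 and 18.6 CPM in JIB-04. By the same measure, the nearest members to Serpina3n were Chil1, at a difference of 0.324, and Socs3, at 0.412, and the farthest was Lifr at 1.59.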

How the data were processed

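Heart RNA was taken up in Trizol and sequenced from stranded mRNA libraries, per the labels' protocols. The submitters' processing notes list build mm10 and the tools TopHat2 2.0.12, featureCounts, Subread, edgeR, Picard 1.127 and FastQC 0.11.2, with no role or order. The deposited values, in a column headed CPM, were treated as a normalised signal: the columns sum to 954981 to 1046902. All deposited values (100%) lay within 0.01 of a multiple of 1 read's value, so whole reads were recovered. A blank row was left out. Starts in the files count from 0 and are printed from 1.

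Genes were kept by edgeR's filterByExpr. It asks for about 10 reads in at least 2 libraries, the size of the smaller group, and 15 in total. The log2(CPM + 1) values of all 5 libraries were fitted with limma 3.58.1 (trend option, R 4.3.3), which left 3 residual degrees of freedom, and p-values were adjusted over every gene tested (Benjamini-Hochberg). Alternatives were edgeR 4.0.16, DESeq2 1.42.0 and limma-voom on the recovered reads, other scalings, filters and a pseudocount of 0.25, each library left out, and the replicate number as a block. The fitting functions were tested on simulated counts, with the same spread setting for every gene and changes only in genes with many reads. That test does not measure power in these data.

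The members and lists were chosen with earlier results of these data known. Beside the members, the text names the 3 tested genes with the smallest p in each pathway list, and others to complete a list or for their level. The latter were chosen after their values were seen. Marker lists are given as sums. Values of some genes that the rule names are not reported here. The labels give no batch, litter or sex.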

Additional observations from a re-analysis of the deposited data

How the results depend on the processing

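Of 134 values of members recomputed under other settings, 126 moved by less than the spread between replicates (1 SD), 6 moved by more and 2 changed sign. The sign changes were both of Lcn2, at -0.20 without JIB-04 replicate 3 and -0.20 with the replicate block, in which that library has a number of its own and drops out of the comparison. With 1 library left out Lcn2 ranged from -0.20 to 0.79. The median of the members was 0.74 with edgeR and 0.74 with DESeq2, which do not add 1 to the CPM, and ranged from 0.13 to 0.77 with 1 library left out, against 0.36. The members with every JIB-04 library above vehicle numbered 4 to 8 with 1 library left out, with the 8 reached without JIB-04 replicate 1. Such a separation is easier to reach with fewer libraries. The share of all tested genes was not computed for these settings, so nothing is read from these counts. No scaling moved the median of all genes by more than 0.05, and no member changed sign with scaling.

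Genes called over all genes numbered 0 with limma, 85 with DESeq2 (69 higher, 0.455% of 15151, and 16 lower, 0.106%), and 0 to 29 with 1 library left out. The 29, of which 27 were higher (0.187%) and 2 lower (0.0139%), came without JIB-04 replicate 1. DESeq2 called the members Serpina3n and Chil1, and limma without JIB-04 replicate 1 called Serpina3n, Chil1 and Osmr, all higher. The members were chosen with this comparison known, so nothing is read from that. In the pathway lists DESeq2 called 4 genes (C3, C4b, Cfb and Ccl2), and 0 to 3 were called with 1 library left out (Lbp and Timp1 among them without JIB-04 replicate 1), counts chosen after seeing the data. The cause of these differences was not tested.

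The titles number the replicates in both groups, and nothing says that a number marks a shared animal or day. With the replicate block limma called 0 genes (532 at an unadjusted p under 0.05), and the median of the members was 0.13. The deviations of same-numbered libraries correlated across genes at -0.133 and -0.135. With 2 vehicle libraries the vehicle deviations are equal and opposite, so these values are not independent. They cannot decide whether a number marks a pairing, and the block is given as an alternative only. Depth limits Saa3, Hp, Il6 and the other genes with fewer than about 20 reads a library.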
